A study of Mus musculus with 6 samples.

Results

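The nuclear-encoded subunits of the oxidative phosphorylation machinery were followed in cultured mouse ovary as a group of 85 genes among the 27098 of the deposited count table. The genes were taken by their symbols and their annotation as protein coding, a rule that uses no measured value but was drawn up with earlier results of these data known. They comprise 37 genes of complex I (symbols beginning with Nduf), 4 of complex II (Sdha to Sdhd), 8 of complex III (Uqcr), 19 of complex IV (Cox4 to Cox8, with Ndufa4, which was named for complex I and is found in complex IV) and 17 of complex V (Atp5). Cox7a2l, placed here with complex IV by its symbol, encodes an assembly factor of respiratory supercomplexes.

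The ovaries came from mice 3 days after birth, an age at which the organ holds mostly primordial follicles, and were kept in DMEM/F12 medium with 1% antibiotics. There were 3 libraries of ovaries exposed to 2% platelet-rich plasma (PRP) for 2 h and 3 control libraries of ovaries in the same medium without it, numbered 1 to 3 in each group. The series text describes the plasma as human and activated with thrombin, the sample labels say only PRP, and no control with thrombin or with another plasma is named. The labels give no strain or genotype and do not say whether the numbered samples are separate cultures, litters or animals, so that the spread behind each p-value is that between these samples and may be technical. The comparison addresses which ovarian transcripts differ after a brief exposure to PRP, a plasma fraction rich in platelet growth factors that the study tested for activation of primordial follicles.

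Oxidative phosphorylation passes electrons from NADH through complex I, and from succinate through complex II, by way of ubiquinone to complex III and by way of cytochrome c to complex IV, where oxygen is reduced. Complexes I, III and IV pump protons across the inner mitochondrial membrane, and complex V, the ATP synthase, uses the returning protons to make ATP. Most subunits are encoded in the nucleus and imported, while a small core is encoded by mitochondrial DNA, and the growing oocyte is known for relying on mitochondrial oxidation of pyruvate.

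The transcription factors NRF1, the ETS factor GABP and YY1 are known regulators of respiratory subunit genes in mammals, so the promoter windows of the 70 members with an entry in a RefSeq table of GRCm38.p6 (250 bases before to 50 after a transcript start) were searched on both strands. The NRF1 palindrome was found in 5 of the 70 members, or 7.14%, against 1.75% of 14645 coding genes with a window. The YY1 motif AAGATGGCG was found in 7 of the 70 members, against 2.53% of these genes. The shorter core GCATGC, which lies within the palindrome and was counted with it, was present in 18.6% against 10.1%, and the ETS motif CCGGAAG in 24.3% against 15.3%. The Sp1 motif GGGCGG was less frequent, in 41.4% of members against 57.6%. These shares describe letters in a window, and no binding was measured. A gene counted if any of its windows held the motif, with 75 windows for the 70 members and 18283 for the 14645 genes. The 14645 genes include the members and were not limited to genes expressed here, so the shares are not strictly like for like. The windows that hold the NRF1 palindrome and the YY1 motif are shown because these motifs had the largest ratios to the other genes among the 5 searched, each as 30 bases, 5′ to 3′ on the gene's strand, with the motif in capitals.

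The NRF1 palindrome was read in Atp5g2 (chr15:102671070-102671099, minus strand), Atp5k (chr5:108434430-108434459, minus), Cox6a1 (chr5:115349101-115349130, minus), Ndufa11 (chr17:56717692-56717721, plus) and Uqcrc1 (chr9:108936668-108936697, plus), all in GRCm38.p6.
Atp5g2: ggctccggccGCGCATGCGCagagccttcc
Atp5k: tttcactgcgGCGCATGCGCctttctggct
Cox6a1: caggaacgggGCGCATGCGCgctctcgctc
Ndufa11: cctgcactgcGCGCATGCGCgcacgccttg
Uqcrc1: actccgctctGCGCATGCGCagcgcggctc

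The YY1 motif was read in Atp5j (chr16:84835045-84835074, minus strand), Atp5j2 (chr5:145191499-145191528, minus), Ndufa9 (chr6:126849096-126849125, minus), Ndufc1 (chr3:51408914-51408943, minus), Ndufs4 (chr13:114388045-114388074, minus), Ndufs6 (chr13:73328433-73328462, minus) and Ndufs7 (chr10:80249463-80249492, plus) of the same build.
Atp5j: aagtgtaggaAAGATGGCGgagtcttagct
Atp5j2: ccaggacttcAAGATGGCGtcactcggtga
Ndufa9: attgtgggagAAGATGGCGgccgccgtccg
Ndufc1: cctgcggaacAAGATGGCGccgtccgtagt
Ndufs4: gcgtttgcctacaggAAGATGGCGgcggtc
Ndufs6: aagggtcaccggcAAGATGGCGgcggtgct
Ndufs7: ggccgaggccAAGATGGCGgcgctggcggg

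In 6 of these 7 genes, all but Atp5j, the YY1 motif began 22 to 35 bases after the transcript start. The NRF1 palindrome stood at more varied places, from 162 bases before the start in Cox6a1 to 30 bases after it in Uqcrc1.

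Library totals were 36037111 to 36568367 counts with PRP and 35568000 to 35825931 in control. The subunit genes took 0.865%, 0.873% and 0.837% of the counts in PRP 1 to 3, against 0.809%, 0.856% and 0.773% in control 1 to 3. Haemoglobin genes took 0.0107% to 0.0222% with PRP and 0.0106% and 0.0142% in control 1 and 2, but 0.122% in control 3, the library with the lowest subunit share. CPM below is counts per 1000000 of the library size, scaled by trimmed means of M values (TMM). In bulk tissue, fewer cells of a type and less RNA per cell cannot be told apart.

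No subunit gene passed the test between PRP and control. Of the 85, 83 had enough counts to be tested, and 0 of these 83 had an adjusted p under 0.05 in edgeR's quasi-likelihood test, as had 0 of all 17475 genes tested (0%). What the values did show was a small offset of most subunits to one side: the log2 fold change, PRP over control, lay above 0 for 76 of 83 subunits, against 50.4% of all genes. The median was 0.08 (range -0.89 to 0.29), against 0.00 over all genes. Only 7 subunits lay at or below 0, namely Atp5b, Cox7b2, Cox8c, Ndufb4, Ndufs1, Ndufs5 and Uqcrb. At an unadjusted p under 0.05 there were 5 subunits higher with PRP and 0 lower, against 1.25% and 1.93% of all genes. That count was 10 without control 2, 3 without control 3 and 2 without PRP 3, where 1.08%, 1.96% and 0.86% of all genes were higher. Without control 3, 65 of 84 subunits lay above 0 (all genes 51.2%), with a median of 0.06. All subunits were measured in the same 6 libraries, so counts of subunits here and below are not counts of independent observations.

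Markers of ovarian cell types were present, and some lay to the same side as the subunits. The 7 oocyte markers (Ddx4, Gdf9, Zp2, Zp3, Figla, Nobox and Sohlh1) were all above 0 and summed to 1548 to 2278 CPM with PRP and 1426 to 1996 CPM in control. The 5 stromal markers, 4 of them above 0, summed to 2791 to 3307 CPM with PRP and 2518 to 3220 CPM in control, and the 3 surface epithelium markers, all above 0, to 266 to 324 CPM and 249 to 280 CPM. All 3 mural markers were above 0, at 132 to 166 CPM with PRP and 106 to 177 CPM in control. Granulosa markers (3 of 5 above 0) summed to 746 to 798 CPM with PRP and 708 to 796 CPM in control, and endothelial markers (2 of 3) to 220 to 273 CPM and 236 to 273 CPM. Leukocyte markers (1 of 3) summed to 21.7 to 26.7 CPM with PRP and 20.5 to 26.5 CPM in control, and adipocyte markers (0 of 2) to 2.76 to 3.71 CPM and 2.68 to 4.52 CPM. The 5 erythroid markers, none above 0, summed to 109 to 225 CPM with PRP, and to 108 and 144 CPM in control 1 and 2 but 1309 CPM in control 3. Without the block 0 of these markers passed, and with the replicate block 2 oocyte markers and 1 surface epithelium marker did (edgeR, adjusted p under 0.05). The part of cell composition in the offset of the subunits was not tested.

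Adding up the 85 genes gave 8580, 8681 and 8481 CPM in PRP 1 to 3, against 8057, 8487 and 7866 CPM in control 1 to 3. The means were 8580 ± 100 CPM and 8137 ± 318 CPM (SD, n = 3 each), a ratio of 1.05. The groups overlapped, because control 2 lay above PRP 3. Complex V summed to 3265, 3249 and 3250 CPM with PRP and 3083, 3189 and 3077 CPM in control. Complex IV summed to 1686, 1654 and 1618 CPM with PRP and 1560, 1594 and 1498 CPM in control. In these complexes every PRP library lay above every control library. For complexes I, II and III the sum in control 2 lay within or above the PRP values. The ratios of the means were 1.07, 1.04, 1.04, 1.07 and 1.04 for complexes I to V. The 17 genes of complex V made up the largest of the 5 sums in all 6 libraries.

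The median log2 fold change lay above 0 in each complex. It was largest in complex I, at 0.11, with 34 of 37 genes above 0, and smallest in complex III, at 0.04, with 7 of 8. The medians of complexes II, IV and V were 0.05, 0.08 and 0.07, with 4 of 4, 15 of 17 and 16 of 17 genes above 0, and 16 of 17 in complex IV with the replicate number as a block. Between PRP 2 and control 2 alone, the median log2 difference of complex II was -0.035, with 2 of 4 genes above 0. The medians of the other complexes lay above 0 for each number. The complexes were not tested against each other. The standard error of a single subunit's log2 fold change had a median of 0.08 without and 0.06 with the replicate number as a block. For 59 of 83 subunits the whole 95% interval lay within a 1.25-fold difference in either direction (0.322 on the log2 scale), among them all 4 genes of complex II and all 17 of complex V, and with the replicate block for 73.

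**Figure D1:**
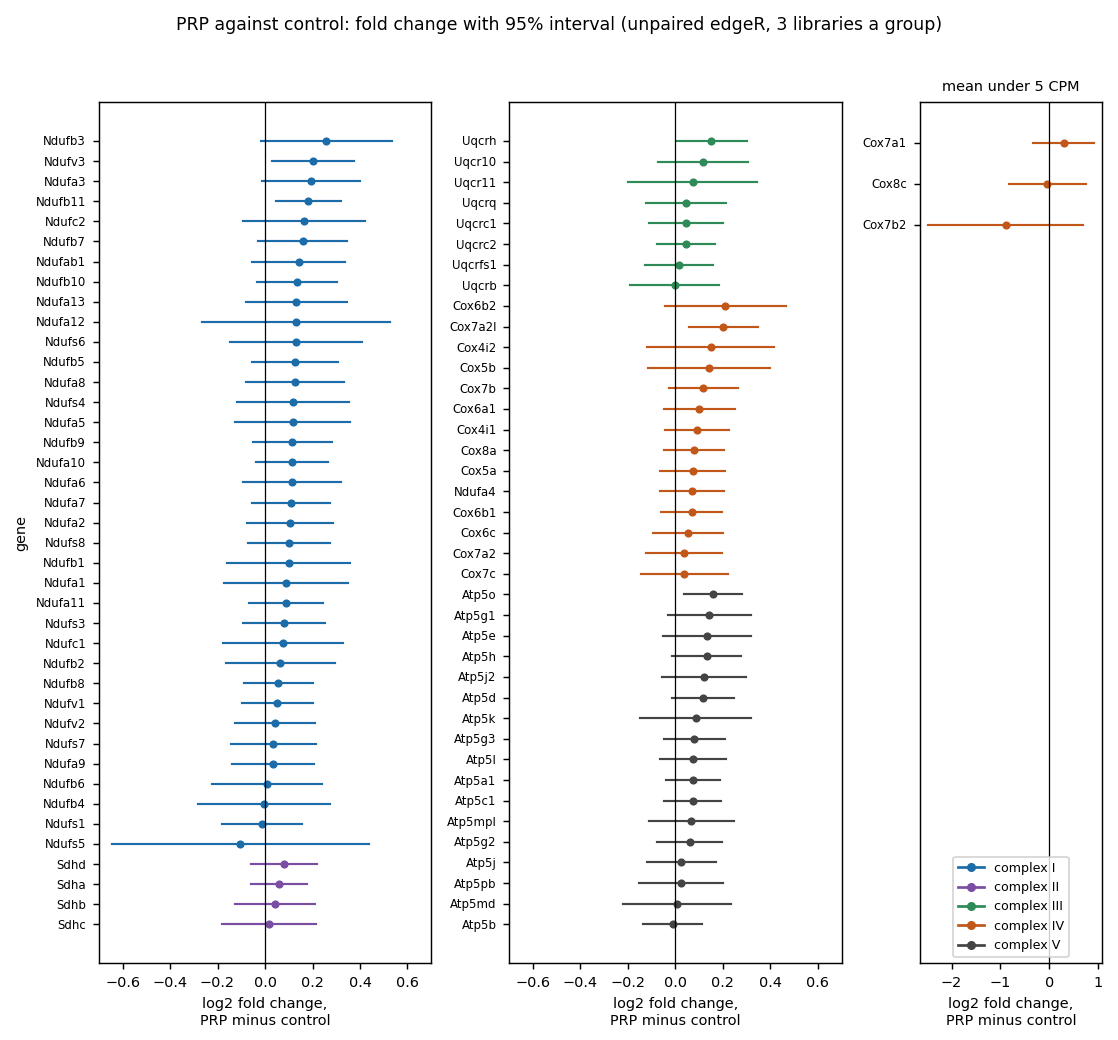
Log2 fold change, PRP over control, of 82 of the 83 tested subunit genes (x axis) with 95% intervals from the unpaired fit in edgeR, coloured by complex, with genes under 5 CPM in a panel of their own. Of these points 75 lie above 0 and 7 at or below it, and no gene passed the adjusted threshold.

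The 3 pairs of libraries with the same number did not contribute equally. The median difference between PRP and control over the 83 subunits was 0.08 for number 1, 0.03 for number 2 and 0.13 for number 3 on the log2 scale, and 67, 55 and 75 subunits lay above 0. The medians over all genes were 0.00 in each of the 3. There were 41 subunits above 0 in all 3 differences, against 16.8% of all genes. Control 2 was the highest control library for 61 of the 83 subunits, and control 3 the lowest for 52. Of all 6 libraries, PRP 2 was the highest for 32 subunits and PRP 1 for 23, and control 3 was the lowest for 49 and control 1 for 20. No shares over all genes were computed for these counts by library, so they are not given as particular to the subunits. Across the subunits, 50.3% of the variance of log2 CPM went with the replicate number and 26.8% with the treatment, against 56% and 15.7% over all genes. A split into 3 numbers takes a larger share on average than a split into 2 treatments, even with no effect. The shares of number and treatment therefore cannot be compared with each other, only each with its value over all genes.

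**Figure D2:**
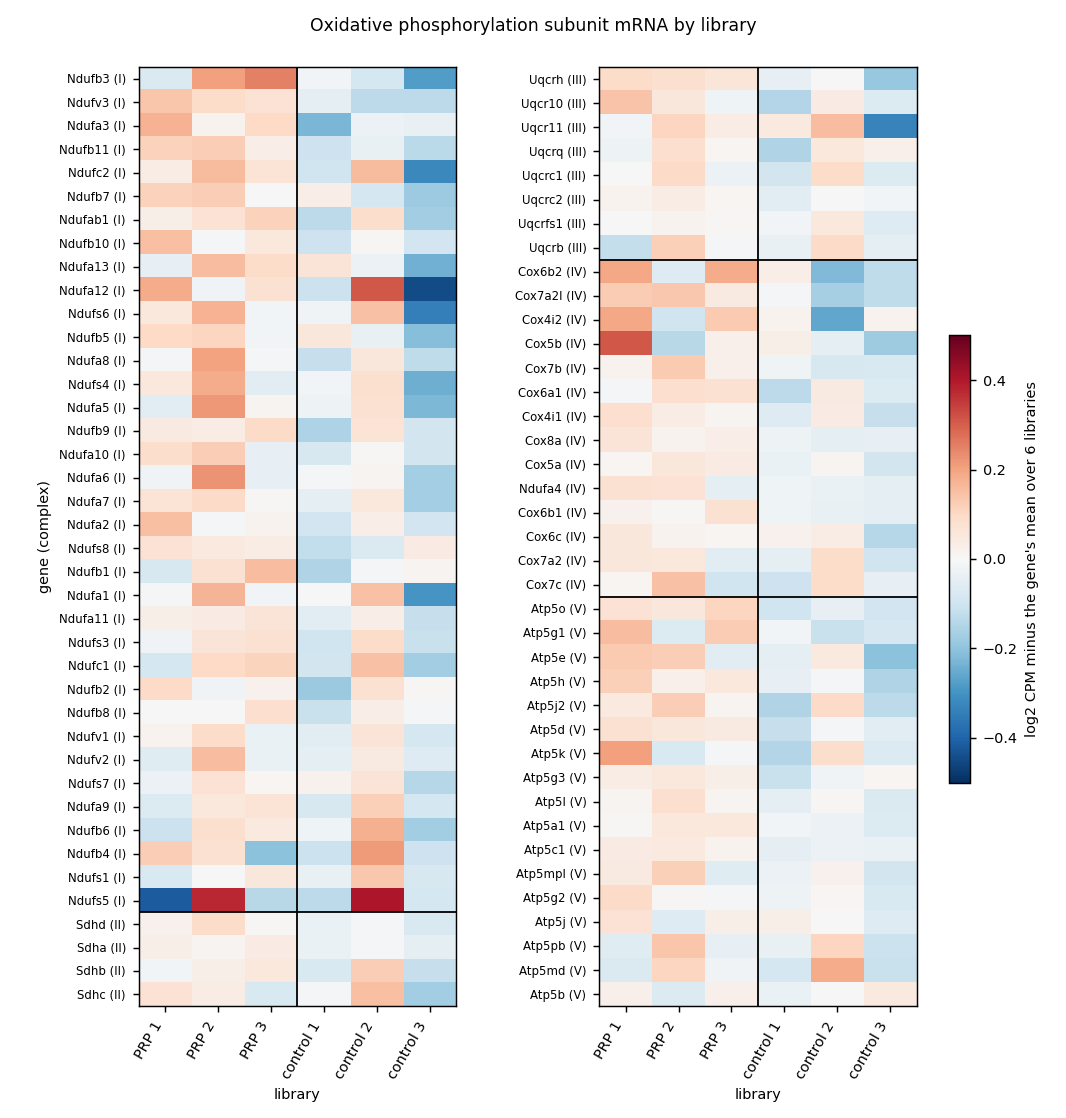
Log2 CPM of 79 of the 80 tested subunit genes over 5 CPM minus each gene's mean over 6 libraries (colour, limited to 0.5 in either direction), with PRP 1 to 3 left of control 1 to 3. Of the 83 tested genes, 49 have their lowest value in control 3, and 61 have control 2 as their highest control library. No shares over all genes were computed for these counts.

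**Figure D3:**
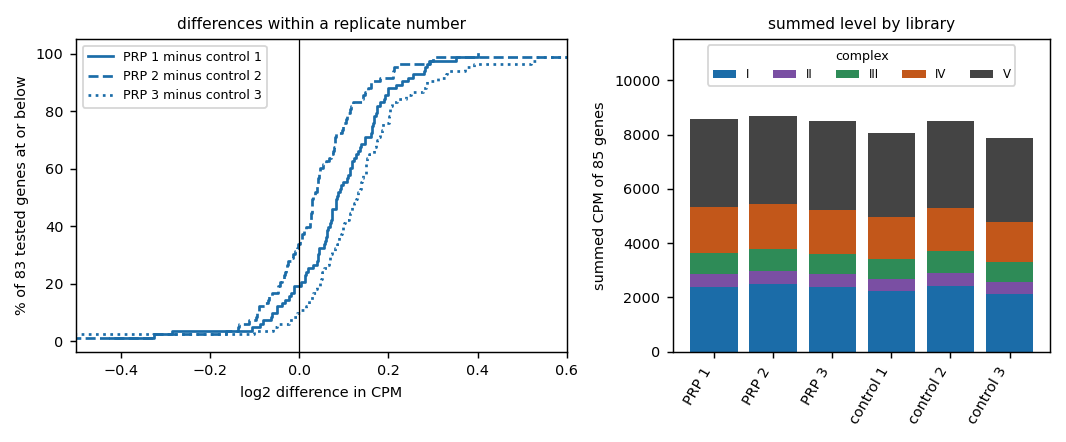
Left, the cumulative share of the 83 tested subunits (y axis, percent) by log2 difference between the PRP and control libraries of the same number (x axis). Right, summed CPM of the 85 genes by library, stacked by complex. The curve of number 2 lies nearest 0, with a median of 0.03, and the sum in control 2, 8487 CPM, lies among the PRP sums.

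The replicate numbers were taken as pairs from the data, not from a label, and the errors and intervals given for single genes come from unpaired groups unless stated. With the replicate number as a block in edgeR, 21 of all 17475 genes passed (0.12%) and 0 of the 83 subunits, the smallest adjusted p among subunits being 0.154, for Cox7a2l. Over the settings tried, the smallest adjusted p of any subunit ran from 0.154 to 1. The fold changes lay above 0 for 77 of 83 (50.8% of all genes), and 18 subunits were higher and 0 lower at an unadjusted p under 0.05 (5.31% and 5.91% of all genes). The 18 were 9 of complex I, 6 of complex V, 2 of complex IV and 1 of complex III. The 5 with the smallest unpaired p had blocked differences of 0.20 ± 0.05 (Cox7a2l), 0.18 ± 0.05 (Ndufb11), 0.16 ± 0.05 (Atp5o), 0.20 ± 0.07 (Ndufv3) and 0.15 ± 0.05 (Uqcrh), with adjusted p of 0.154, 0.180, 0.204, 0.254 and 0.272 in edgeR.

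In 19 subunits every PRP library lay above every control library, and in 0 the reverse held, against 4.34% and 4.87% of all genes. Complex V held 7 of them (Atp5a1, Atp5c1, Atp5d, Atp5g3, Atp5h, Atp5l and Atp5o). Complex I held 4, with Ndufa3, Ndufb11 and Ndufv3 among them, complex IV held Cox6b1, Cox7a2l, Cox7b and Cox8a, complex II Sdha and Sdhd, and complex III Uqcrc2 and Uqcrh. The spans of 7 of these 19 genes overlap another gene of the table, and 4 have a similar transcript elsewhere in the genome, so that their counts are less certain.

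Complex I takes electrons from NADH by a flavin in Ndufv1 and passes them along iron-sulphur clusters, several of them in Ndufs subunits, to ubiquinone. Ndufb11 (Entrez 104130, chrX:20615326-20617619, GRCm38), an accessory subunit of the membrane arm, measured 108, 109 and 102 CPM with PRP, against 93.0, 97.4 and 91.1 CPM in control. Every PRP library lay above every control library. The log2 fold change was 0.18 ± 0.06 (SE; 95% interval 0.04 to 0.32; unadjusted p = 0.0151, adjusted p = 0.9998 in edgeR, n = 3 each). Its span overlaps Rbm10, and the counting cannot be shown to keep them apart.

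Ndufv3 (Entrez 78330, chr17:31520115-31531326), a small accessory subunit of the NADH-oxidising module, measured 45.5, 44.0 and 43.5 CPM with PRP, against 40.1, 37.7 and 37.8 CPM in control. The groups did not overlap, and the difference was 0.20 ± 0.08 (unadjusted p = 0.0255, adjusted p = 0.9998 in edgeR). Ndufa3, an accessory membrane subunit, measured 42.4, 38.1 and 40.3 CPM with PRP, against 32.1, 36.9 and 36.62 CPM in control. Its groups lay closer together, and the difference was 0.19 ± 0.09.

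The other core and fixed members of complex I lay nearer 0. Ndufs1, the largest subunit, which carries several iron-sulphur clusters, measured 84.6, 89.03 and 92.6 CPM with PRP, against 86.9, 97.8 and 84.3 CPM in control, with overlapping groups and a difference of -0.01 ± 0.07. Fold changes on the log2 scale were 0.08 ± 0.08 for Ndufs3, 0.04 ± 0.08 for Ndufs7, 0.10 ± 0.08 for Ndufs8, 0.05 ± 0.07 for Ndufv1, the flavin-bearing subunit, 0.04 ± 0.07 for Ndufv2 and 0.14 ± 0.09 for Ndufab1, the mitochondrial acyl carrier protein. Ndufb2, a small accessory subunit with the lowest level of complex I (11.3 CPM per kb of transcript), measured 29.2, 27.0 and 27.7 CPM with PRP, against 24.0, 28.8 and 27.4 CPM in control, with overlap (0.06 ± 0.10). The groups of Ndufs8 overlapped in control 3 alone, at 48.3 CPM against 48.2 to 49.4 CPM with PRP and 43.2 and 44.6 CPM in the other controls.

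Some complex I genes varied mainly with the replicate number. Ndufs5 measured 28.8, 49.98 and 35.0 CPM with PRP, against 35.2, 50.9 and 36.2 CPM in control. The number accounted for 91.9% of the variance of Ndufs5, against 56% over all genes together. Both libraries numbered 2 were its highest. Across subunits, both libraries numbered 2 were the highest for 21 of 83, against 13.7% of all genes. Ndufa12 showed no such pattern, at 35.3, 30.7 and 32.8 CPM with PRP and 28.9, 38.6 and 22.8 CPM in control: the highest and the lowest library were both controls.

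**Figure D4:**
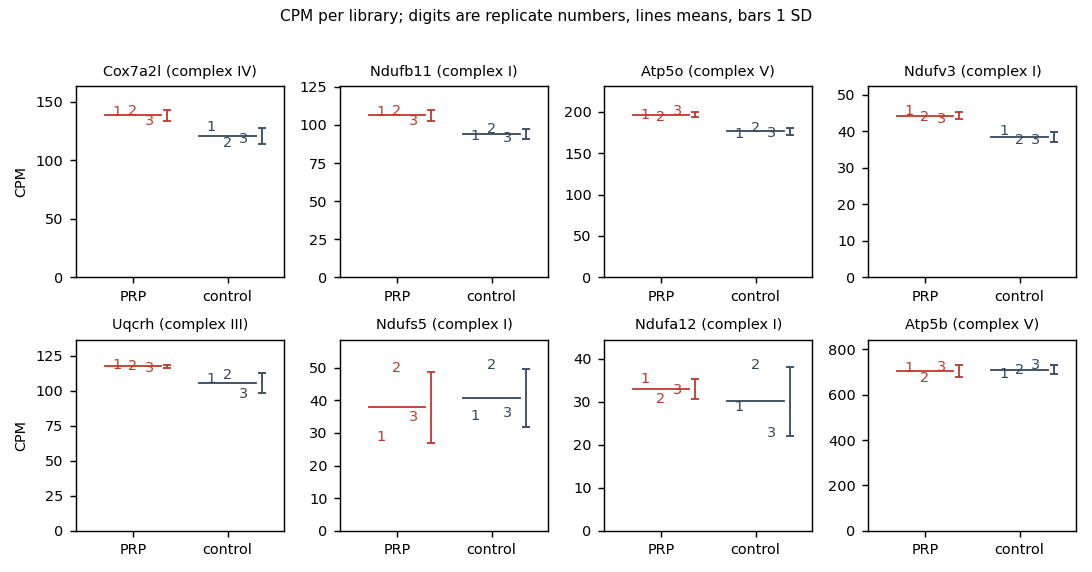
CPM of 8 subunit genes in each library, PRP left of control, with digits for replicate numbers, lines for means and bars for 1 SD (n = 3 each). The 5 genes with an unadjusted p under 0.05 in edgeR do not overlap between groups, Ndufs5 is highest in both libraries numbered 2, and the groups of Ndufa12 and Atp5b overlap.

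Complex II oxidises succinate and also works in the tricarboxylic acid cycle. Its catalytic flavoprotein subunit Sdha was among the steadiest of all subunits, with the highest library 1.06 times the lowest. It measured 215, 213 and 217 CPM with PRP, against 206, 210 and 204 CPM in control. The groups did not overlap, yet the difference was 0.06 ± 0.05. The membrane anchor subunit Sdhd measured 76.6, 80.2 and 75.6 CPM with PRP, against 73.5, 75.0 and 71.5 CPM in control (0.08 ± 0.06). The iron-sulphur subunit Sdhb and the other anchor Sdhc overlapped between groups, with differences of 0.04 ± 0.08 and 0.02 ± 0.09.

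Complex III carries electrons from ubiquinol to cytochrome c. Its hinge protein gene Uqcrh (Entrez 66576, chr4:116066965-116075070) measured 118, 117 and 116 CPM with PRP, against 108, 111 and 97.5 CPM in control. All PRP libraries lay above all controls, by 0.15 ± 0.07 (95% interval 0.00 to 0.30; unadjusted p = 0.0475, adjusted p = 0.9998 in edgeR). Its span overlaps Gm12854. The large core proteins lay closer to 0: Uqcrc1 measured 194, 207 and 190 CPM with PRP, against 182, 206 and 185 CPM in control (0.04 ± 0.07), and Uqcrc2 differed by 0.04 ± 0.05. The Rieske iron-sulphur protein gene Uqcrfs1 measured 70.1, 71.0 and 70.4 CPM with PRP, against 69.5, 72.6 and 67.1 CPM in control, the PRP values lying inside the control range (0.02 ± 0.06). The small subunit Uqcr10 differed by 0.12 ± 0.08.

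In complex IV the assembly factor Cox7a2l (Entrez 20463, chr17:83501917-83514333) had the smallest p of all 83. It measured 141, 142 and 133 CPM with PRP, against 128, 115 and 118 CPM in control. Every PRP library lay above every control library, with a difference of 0.20 ± 0.06 (95% interval 0.06 to 0.35; unadjusted p = 0.0121, adjusted p = 0.9998 in edgeR). Its paralog Cox7a2, a structural subunit, overlapped between groups (0.04 ± 0.07). Cox4i1, the common form of a regulatory subunit, measured 365, 353 and 347 CPM with PRP, against 329, 354 and 318 CPM in control, so that control 2 lay among the PRP values (0.09 ± 0.06). Cox5a and Cox5b differed by 0.07 ± 0.06 and 0.14 ± 0.11, Cox6a1 by 0.10 ± 0.07, Cox6b1 by 0.07 ± 0.06, Cox7b by 0.12 ± 0.06, Cox8a by 0.08 ± 0.06 and Ndufa4 by 0.07 ± 0.06.

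Complex IV also has paralogs known from particular tissues, and some of these had the lowest levels of all subunits. Levels between genes are given as CPM per kb of transcript, averaged over 6 libraries. Cox4i2, the form known from lung and oxygen sensing, stood at 38.9 CPM per kb against 462 for Cox4i1, the highest of all subunits. Cox4i2 made up 7.90% ± 0.71 of the sum of both with PRP and 7.65% ± 1.11 in control (SD, n = 3 each). Its span overlaps Bcl2l1 and Gm32057, and the counting cannot be shown to keep them apart, so its level and share are uncertain. Cox6b2, known from testis, made up 26.5% ± 1.68 of the Cox6b sum with PRP and 24.6% ± 1.51 in control. The groups overlapped in both shares. Cox6b2 measured 30.9, 25.9 and 30.7 CPM with PRP, against 27.6, 23.2 and 24.7 CPM in control (0.21 ± 0.11), so that PRP 2 lay below control 1.

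The other restricted forms were near the floor of the measurement. The muscle form Cox7a1 measured 2.55, 2.84 and 3.10 CPM with PRP, against 2.65, 2.62 and 1.68 CPM in control, and Cox8c, known from testis, 2.12, 2.43 and 1.63 CPM against 2.68, 1.25 and 2.41 CPM. Cox7b2, also known from testis, measured 0.49, 0.47 and 0.06 CPM with PRP, against 0.70, 0.81 and 0.40 CPM in control. It had the widest spread of all, 14.6 times between the highest and the lowest library, at a mean of 17.5 counts per library, where counting error alone is 23.9%. The 2 muscle forms left out of the test as too low were Cox6a2, with 5, 7 and 2 counts with PRP and 16, 15 and 6 in control, and Cox8b, with 7, 13 and 7 counts and 2, 4 and 7. The 4 skeletal and cardiac muscle markers Ckm, Acta1, Myh6 and Myl1 summed to 1.10, 1.601 and 1.47 CPM with PRP and 1.39, 0.529 and 1.42 CPM in control. The testis marker Prm1 lay at or under 0.167 CPM in all 6 libraries.

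**Figure D5:**
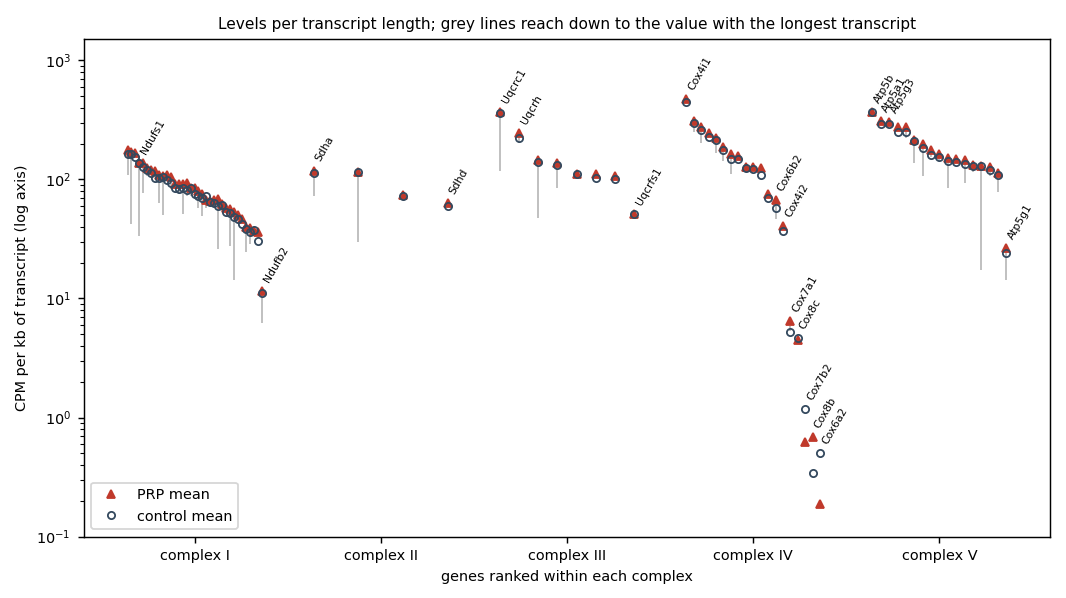
Levels per transcript length of 83 subunit genes (CPM per kb, log axis), ranked within each complex, as the mean of 3 PRP and of 3 control libraries, with grey lines reaching down to the value computed with the longest transcript. Cox4i1 is highest at 462 CPM per kb, and the 5 lowest genes are complex IV forms, down to Cox6a2 at 0.348.

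Complex V contains the catalytic head, with Atp5a1 and Atp5b as its alternating subunits and Atp5c1 as the rotating shaft, and a membrane ring of Atp5g proteins. Atp5o (Entrez 28080, chr16:91925223-91931630), which joins the head to the peripheral stalk, measured 196, 194 and 200 CPM with PRP, against 174, 181 and 174 CPM in control. The groups did not overlap for this gene, with a difference of 0.16 ± 0.05 (95% interval 0.04 to 0.28; unadjusted p = 0.0168, adjusted p = 0.9998 in edgeR). The treatment accounted for 91.8% of its variance, against 15.7% over all genes together, but the gene was named for its small p. A similar transcript of another gene exists for Atp5o. Atp5c1 had a like pattern at a smaller size, with 152, 153 and 149 CPM with PRP, against 143, 144 and 144 CPM in control (0.07 ± 0.05).

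The values of the catalytic pair lay differently. Atp5a1 measured 780, 805 and 806 CPM with PRP, against 770, 762 and 742 CPM in control, without overlap (0.07 ± 0.05). Atp5b measured 720, 674 and 721 CPM with PRP, against 691, 708 and 732 CPM in control, with PRP 2 the lowest and control 3 the highest of 6 (-0.01 ± 0.06, 95% interval -0.14 to 0.11). The difference between the genes was not tested. The ring is encoded by 3 genes whose proteins become identical after import, and Atp5g3 held 61.9% ± 1.04 of their summed level per kb with PRP and 61.7% ± 1.43 in control. Atp5g2 held 32.8% and 33.2%, and Atp5g1 5.36% and 5.12%. These shares depend on the median lengths used, 2675.5 bases for Atp5g1 against 683 for Atp5g2 and 718.5 for Atp5g3. In CPM, not divided by length, Atp5g1 averaged 71.0 with PRP and 64.2 in control. Atp5g2 averaged 111 and 106 CPM, and Atp5g3 220 and 208 CPM, so that Atp5g1 lay much closer to the others. The order of the 3 was the same with either transcript length and in CPM. Atp5d, in the central stalk, and Atp5h, in the peripheral stalk, differed by 0.12 ± 0.06 and 0.13 ± 0.06, and Atp5g1, Atp5g2 and Atp5g3 by 0.14 ± 0.08, 0.06 ± 0.06 and 0.08 ± 0.06.

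The subunit genes are short and spread over the genome. Their median transcript length was 648 bases, against 2113 for all genes tested, and their transcripts' median GC content 52.4% against 50.7%. They lay on 19 chromosomes, with Ndufa1, Ndufb11 and Cox7b on X. With transcript GC content and length fitted out of each library, the median was 0.06 on the log2 scale, 68 of 82 subunits lay above 0 (all genes 50.6%) and 4 were higher at an unadjusted p under 0.05 (all genes 1%). With the replicate block and this correction 9 were (all genes 4.77%). Of the 5 genes with the smallest p, Atp5o held the NRF1 core in its promoter window, Uqcrh the ETS motif, and Cox7a2l and Ndufv3 the Sp1 motif, while Ndufb11 held none of the 5 motifs.

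Other genes of the pathway were more evenly divided, though the lists were not tested against the subunits. Of the 8 tested electron carriers and further subunits, with Cyc1 and Cycs among them, 6 lay above 0 with a median of 0.05. Assembly factors lay above 0 in 9 of 15 for complex I, 4 of 4 for complex II, 4 of 6 for complex III, 12 of 21 for complex IV and 0 of 3 for complex V, with medians of 0.02, 0.06, 0.05, 0.02 and -0.04. Tricarboxylic acid cycle enzymes lay above 0 in 8 of 13 (median 0.01). No gene of these 7 lists passed in edgeR, with or without the replicate block. At an unadjusted p under 0.05 in edgeR without the block, 1 gene of these lists was higher and 1 lower, both complex III factors. They were Uqcc1 (0.27 ± 0.11) and Lyrm7, which delivers the Rieske protein (-0.47 ± 0.17). Over all genes 1.25% were higher and 1.93% lower.

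Of 13 regulators of mitochondrial biogenesis, 3 lay above 0 (50.4% of all genes), with a median of -0.12, and none of them passed. At an unadjusted p under 0.05 in edgeR, 0 were higher and 1 lower without the block (1.25% and 1.93% of all genes). With the block 0 were higher and 2 lower (5.31% and 5.91% of all genes). The 13 subunits encoded by mitochondrial DNA had 5 above 0 and a median of -0.04. Among those below 0, ND3, ND4L and ATP8 lay at or under 2.41 CPM in every library, so their direction is uncertain. At an unadjusted p under 0.05 in edgeR without the block, 2 of the 13 were higher, ATP6 and COX2 (0.22 ± 0.09), and 0 lower. The shares over all genes were 1.25% and 1.93%. None of these 13 passed without the block, and with it ATP6 rose by 0.95 on the log2 scale (adjusted p = 0.0331 in edgeR). No gene, ATP6 included, passed with the block in limma-voom or without robust estimation. ATP6 is known to overlap ATP8 and to have a near-identical nuclear copy in the mouse, so its count is uncertain. Mitochondrial messenger RNA took 1.77% to 2.05% of counts with PRP and 1.81% to 1.90% in control.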

How the data were processed

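Ovarian messenger RNA was sequenced in 3 PRP and 3 control libraries, whose groups and numbers come from their titles. The values are raw counts for each gene symbol, in a single table deposited by the authors. Reads were placed on GRCm38 (mm10), per the submitters' processing notes. The choice of aligner, counter, strand setting and annotation is not given in the sources used here. Thus reads of overlapping genes (20 subunits) or of similar transcripts elsewhere (11 subunits, blastn 2.17.0, 90% identity over 50% of the length) may have gone to either gene. The column of PRP 3 has its letters transposed and was matched by elimination.

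Differences were tested in edgeR 4.0.16 under R 4.3.3 (filterByExpr with a minimum count of 10, TMM, robust quasi-likelihood F test, unpaired, two-sided, Benjamini-Hochberg adjustment over 17475 genes at 0.05). Intervals are at 95%, standard errors follow from the F statistic, and differences between libraries of 1 number used 0.1 CPM as a pseudocount. CPM per kb used the median length of a gene's coding transcripts in GENCODE for GRCm38 (84 of 85 subunits matched), with the longest as alternative. Positions and promoters came from RefSeq for GRCm38.p6. The procedure was tested on simulated data with planted changes of 1.25-fold or more. That test does not bear on smaller changes, such as the median difference of the subunits. The median subunit had 2634 counts per library, with a counting error of 1.95%, which covers counting only.

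Over all genes, libraries of 1 number deviated together from their group means (correlations of 0.24, 0.40 and 0.33), so the numbers were taken as pairs. All other pairings were below 0, but deviations from a mean of 3 libraries sum to 0, which pushes those values down. Over the subunits the values within a number were 0.253, 0.279 and 0.405, and PRP 2 with control 1 also lay above 0, at 0.146. The pairing rests on the data, since no label states it. The unpaired fit gives the errors and intervals of single genes, and blocked counts are printed beside the unpaired ones in the main comparisons. Alternatives were DESeq2 1.42.0, limma 3.58.1 (voom), other scaling and filters, a spline correction for transcript GC content and length, and each library left out. The subunits and lists were chosen with earlier results of these data known. Named by rule were the 3 members of each complex with the smallest p, those of highest and lowest level per length, core subunits and isoform families. A few further members are named as chosen after their values were seen, namely Ndufs5, Ndufa12, Ndufb1, Ndufb4, Uqcrb, Atp5l and the carriers of promoter motifs. The values of 1 complex I subunit are not reported here; it is kept in the counts and sums.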

Additional observations from a re-analysis of the deposited data

How the results depend on the processing

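No subunit passed the threshold in any alternative run. The median log2 fold change of the subunits stayed above 0 throughout, with 0.058 without control 3 and after the GC and length correction as the lowest value and 0.123 without control 2 as the highest, and 65 to 80 subunits lay above 0. Over all genes, 0 calls became 21 with the replicate block, 14 with the block and the GC and length correction, and 3, 1 and 19 with the block when number 1, 2 or 3 was left out; the cause was not tested. The block changed no call of a subunit. Higher at an unadjusted p under 0.05 were 5 subunits in the unpaired edgeR fit (1.25% of all genes), 18 with the replicate block (5.31%), 9 with the block and the GC and length correction (4.77%), 18 with the block in limma-voom (5.14%) and 17 with the block but no robust estimation (5.13%). Leaving out libraries gave 2 to 10 without the block (0.684% to 2.13%), and 13, 19 and 6 with it when number 1, 2 or 3 was left out (3.8%, 3.87% and 4.8%). Combinations of the block with a left-out number, limma-voom or no robust estimation were chosen after seeing the data, as was the count at an unadjusted p. Of 989 recomputed fold changes of 45 named subunits, 949 kept their sign and side. The other 40 changed sign, all of subunits that did not pass, and the cause was not tested. With the GC and length correction, Sdhb was -0.010, Uqcrc1 -0.012, Ndufs7 -0.046, Sdhc -0.038, Cox7a2 -0.0022 and Atp5g2 -0.0050, and with the replicate block added these were -0.0073, -0.011, -0.044, -0.033, -0.0013 and -0.0047. Cox8c was 0.00013 with the replicate block, with or without robust estimation, and 0.018 in limma-voom. Leaving out 1 library at a time gave -0.0084 to 0.123 for Ndufb2, -0.0040 to 0.121 for Sdhb, -0.011 to 0.048 for Uqcrfs1, -0.032 to 0.021 for Atp5b, -0.057 to 0.054 for Ndufs1, -0.023 to 0.079 for Ndufs7, -0.026 to 0.084 for Ndufv2, -0.059 to 0.105 for Sdhc, -0.0017 to 0.0962 for Cox7a2 and -0.303 to 0.167 for Cox8c. Within the block, sign changes were -0.040 for Ndufb2, -0.0098 for Sdhc and 0.184 for Cox8c without number 1. Without number 2 they were 0.0189 for Atp5b and 0.049 for Ndufs1. Without number 3 they were -0.015 for Sdhb, -0.0096 for Uqcrfs1, -0.019 for Ndufs7, -0.014 for Sdhc and 0.283 for Cox8c. Low counts limit the 5 subunits under 5 CPM in every library.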
